A study of Mus musculus with 11 samples.

Results

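The genes described here are the adhesion receptors, whose symbols begin with Adgr, and the G protein-coupled receptors that carry a numbered Gpr symbol, many of them orphans with no agreed ligand. Of 38283 genes in the count table, 102 had such a symbol, with Gpr119 left out by rule. The 69 that reached 15 counts over the 11 libraries are the members: 22 adhesion receptors and 47 orphan-named receptors. Of the other 33 genes, 15 were at 0 in every library. Near the limit, Gpr141 and Gpr15 had 18 counts each and were kept, and Gpr83, Adgrb3 and Gpr27 had 14, 13 and 12 and were not. RNA came from single cells of mouse duodenal epithelium sorted by fluorescence into 3 NeuroD1 positive and 3 NeuroD1 negative libraries of one strain, and 3 Glu positive and 2 Glu negative libraries of another. The NeuroD1 groups came from Neurod1-cre-eYFP mice, in which Cre under Neurod1, a transcription factor gene of enteroendocrine cells, leads to a yellow fluorescent protein, and the Glu groups came from GluVenus mice, in which a Venus protein reports the proglucagon gene. All mice were kept on standard chow under a dark and light cycle, and no age or treatment is named in the labels. Each negative group held a similar number of cells without the reporter signal, so it was a mixture of the other cells of the digest.

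Adhesion receptors carry a long outer part that is cut at a site close to the membrane, and the stub left behind can act as a tethered agonist when the outer part is pulled or lost. They bind matrix proteins and proteins on neighbouring cells. The orphan-named receptors are mostly rhodopsin-like and signal through the same G proteins as hormone and odour receptors. Several of them have since been paired with protons, lipids or peptides, and some Gpr-named proteins sit in internal membranes instead of at the surface. Enteroendocrine cells, the hormone-secreting cells of the gut lining, use G protein-coupled receptors to sense nutrients in the lumen and signals from their neighbours.

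Libraries held 2279595 to 5722381 counts. The 8 enteroendocrine markers summed to 39950 to 58421 CPM in NeuroD1 positive libraries, against 1910 to 2261 CPM in NeuroD1 negative libraries, and to 9367 to 26431 CPM in Glu positive libraries, against 898 to 1090 CPM in Glu negative libraries. All 8 markers were higher in the positive group of both strains. Glu_positive_5254 stood apart in the sum of its T and NK cell markers, 628 CPM, against 189 and 163 CPM in Glu_positive_5160 and Glu_positive_4665. Most of that sum was 1 gene, Cd3e, at 544 CPM, against 111 and 124 CPM in those libraries. Cd2, Cd3g and Nkg7 were also highest in Glu_positive_5254, by less, and Cd3d, Cd8a and Ccl5 were not. Values without Glu_positive_5254 are given beside the calls it ends, adds or moves most. CPM here means counts scaled to library size, after TMM scaling, which corrects for differences in composition between libraries. Of the 69 members, 49 had enough counts to be tested, 20 adhesion and 29 orphan-named receptors, within a table of 14332 tested genes. A call means that the quasi-likelihood test of edgeR gave an adjusted p (Benjamini-Hochberg) under 0.05, and log2 fold changes are given ± SE. Nothing in the labels ties a library number to an animal, and the spread behind each p-value may therefore be technical. In sorted bulk RNA, fewer cells of a type and less RNA per cell cannot be told apart.

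In the NeuroD1 strain, 7 members were higher and 11 were lower in the positive than in the negative libraries. Of all genes tested there, 14.2% were called, 6.57% higher and 7.61% lower, and the members' shares were 14.3% and 22.4%. In the Glu strain, 4 members were higher and 4 were lower, 8.16% in each direction, against 6.64% of all genes tested in either direction, 4.22% higher and 2.41% lower. The median log2 fold change of the 49 tested members was -1.18 in the NeuroD1 strain, or -1.15 with the genes that have a group at 0 set to their bound, against 0.02 for all genes. In the Glu strain it was -0.31, against 0.12 for all genes. Adgrg4, Adgrf5, Adgrd1 and Gpr22 were higher in both strains, out of 7 NeuroD1 and 4 Glu calls. Adgre1, Gpr132 and Gpr18 were lower in both, out of 11 NeuroD1 and 4 Glu calls. The comparisons in the 2 strains share no library, but both came from 1 fit. How many of all genes were called in both strains was not computed, so this sharing is not shown to be particular to the members.

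**Figure D1:**
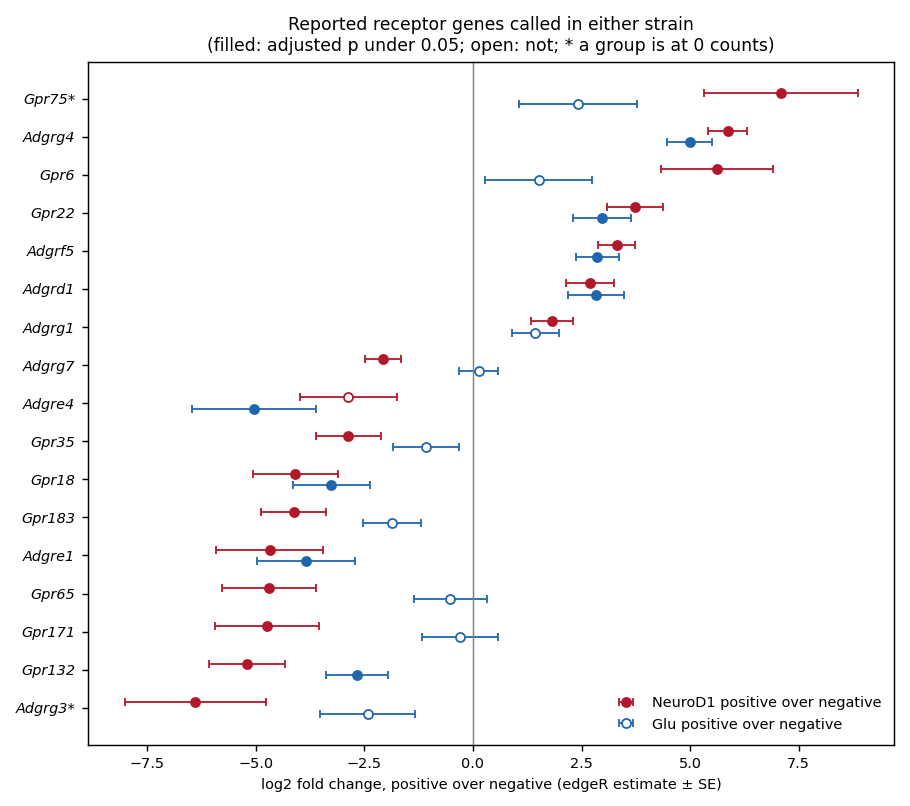
Log2 fold change of positive over negative libraries (edgeR estimate ± SE) for the reported receptor genes called in either strain, with NeuroD1 in red, Glu in blue and filled points for an adjusted p under 0.05. Adgrg4, Gpr22, Adgrf5 and Adgrd1 are filled on the right in both strains, and the fitted values of Gpr75 and Adgrg3 are no bounds, since each has a group at 0 counts.

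Adgrg4, also known as GPR112, is an adhesion receptor whose human counterpart was described as a marker of intestinal neuroendocrine tumours. It had the highest level per kilobase of the 49 tested members in both positive populations. The gene lies on chromosome X at 56870163 to 57001558 on the plus strand (GRCm38, GENCODE vM21). It was at 1809, 3618 and 1918 CPM in NeuroD1_positive_6360, NeuroD1_positive_6361 and NeuroD1_positive_6362, against 36.5, 45.2 and 44.5 CPM in the NeuroD1_negative libraries of the same numbers. It was at 6297, 3004 and 2714 CPM in Glu_positive_5254, Glu_positive_5160 and Glu_positive_4665, against 149.9 and 102 CPM in Glu_negative_5254 and Glu_negative_4665. In these library orders, which hold for all values below, every positive library lay far above every negative library of its strain. The log2 fold change was 5.87 ± 0.45 in the NeuroD1 strain (adjusted p = 2.76e-07) and 4.99 ± 0.52 in the Glu strain (adjusted p = 3.57e-05). Without any 1 library it stayed between 5.48 and 6.05 in the NeuroD1 strain and between 4.51 and 5.28 in the Glu strain, and it remained called.

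Scaled to exon length, Adgrg4 was at 249 CPM per kilobase in NeuroD1 positive libraries, rank 79 of 14151 tested genes with a length, against rank 5777 in NeuroD1 negative libraries at 4.28 CPM per kilobase. In Glu positive libraries it was at 408 CPM per kilobase, rank 44, against 12.8 CPM per kilobase and rank 2119 in Glu negative libraries. Of the counts of all tested members, Adgrg4 took 72.7% in NeuroD1 positive libraries (23459 of 32259), against 4.34% in NeuroD1 negative libraries (399 of 9184). The share was 77.7% in Glu positive libraries (48533 of 62481), against 11.3% in Glu negative libraries (1408 of 12422). Most counts of this receptor class in the positive cells thus came from 1 gene, while in the negative cells they were spread over others.

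Ordered by mean, Adgrg4 was at 4005 ± 1990 CPM in Glu positive (SD, n = 3), 2448 ± 1010 CPM in NeuroD1 positive (SD, n = 3), 126 ± 33.7 CPM in Glu negative (SD, n = 2) and 42.1 ± 4.85 CPM in NeuroD1 negative libraries (SD, n = 3). The positive populations overlapped, and NeuroD1 positive over Glu positive had a log2 fold change of -0.71 ± 0.37 (edgeR adjusted p = 0.238). The negative populations did not overlap, and NeuroD1 negative over Glu negative had -1.59 ± 0.41 (edgeR adjusted p = 0.116). That last value passed the threshold with the compared groups alone (-1.59, adjusted p = 0.0414), with scaling by library totals (-1.98, adjusted p = 0.0102) and with no filter on low counts (-1.61, adjusted p = 0.000987). It did not pass under the other alternatives tried, DESeq2 and limma voom among them, nor without any 1 NeuroD1 negative library. Without any 1 library of these groups the log2 fold change lay between -1.85 and -1.31. The difference between the strains in the positive over negative fold was 0.88 ± 0.55 on the log2 scale (adjusted p = 0.579).

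**Figure D2:**
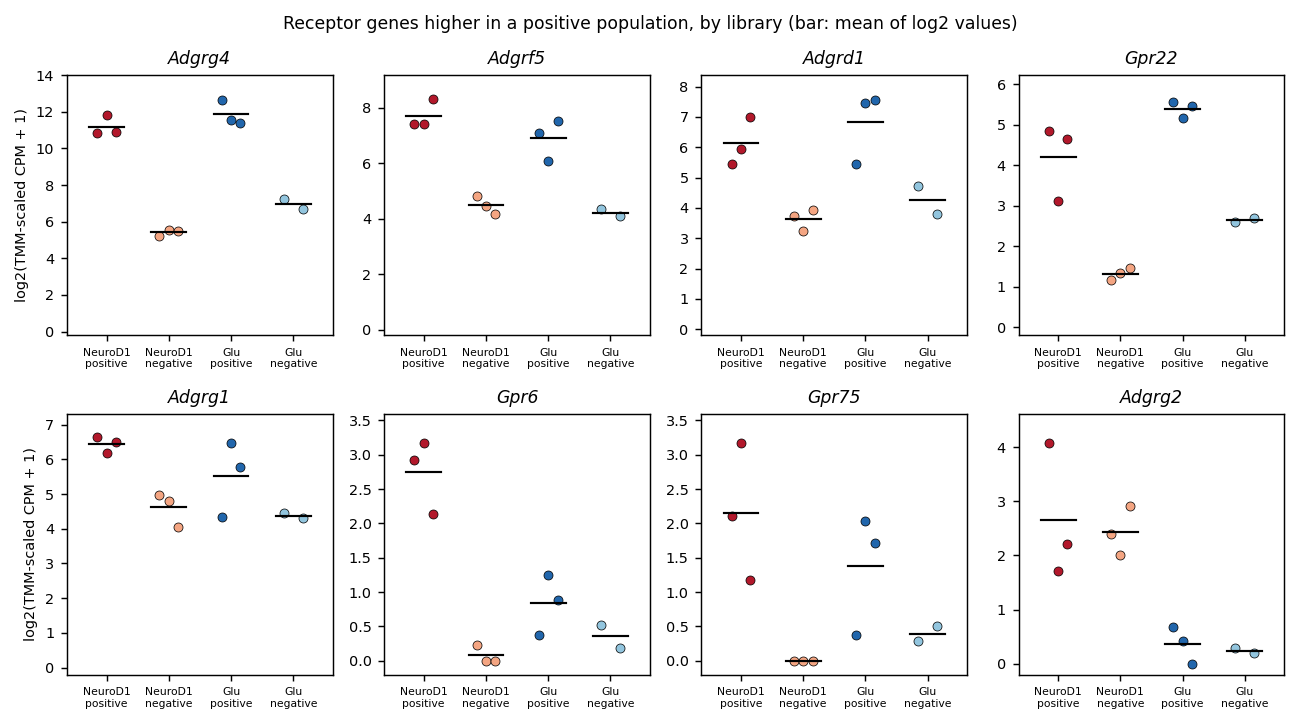
TMM-scaled CPM on a log2(CPM + 1) scale in each library for the 7 receptor genes higher in NeuroD1 positive libraries and for Adgrg2, with 1 point per library and a bar at the mean of the log2 values. Adgrg4, Adgrf5, Adgrd1 and Gpr22 separate positive from negative libraries in both strains, and Adgrg2 separates the strains.

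Adgrf5, also known as GPR116, controls surfactant in lung epithelium and is also found in endothelium. It lies on chromosome 17 at 43360451 to 43459557 on the plus strand. It was at 167, 168 and 314 CPM in NeuroD1 positive libraries, against 27.1, 21.1 and 17.03 CPM in NeuroD1 negative libraries. In the Glu strain it was at 136, 66.5 and 183 CPM in positive libraries, against 19.5 and 15.97 CPM in negative libraries. Positive libraries lay above negative ones throughout, with log2 fold changes of 3.30 ± 0.43 (adjusted p = 4.31e-05) and 2.86 ± 0.49 (adjusted p = 0.00178). The 4 endothelial markers summed to 5.34 to 24.2 CPM in NeuroD1 positive libraries, against 17.9 to 76.8 CPM in NeuroD1 negative libraries, and to 16.2 to 29.7 CPM in Glu positive libraries, against 43.0 to 49.1 CPM in Glu negative libraries. Of these markers 1 was called, lower in the NeuroD1 strain, and none was called higher. The part of endothelial cells in the Adgrf5 values was not tested. Without Glu_negative_4665, Adgrf5 in the Glu strain was not called (2.75, adjusted p = 0.0671).

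Adgrd1, also known as GPR133, couples to the stimulatory G protein through a tethered agonist and lies on chromosome 5 at 129096750 to 129204599 on the plus strand. It was at 42.2, 61.0 and 126 CPM in NeuroD1 positive libraries, against 12.3, 8.54 and 14.4 CPM in NeuroD1 negative libraries. In Glu positive libraries it was at 42.8, 173 and 188 CPM, against 25.2 and 12.9 CPM in Glu negative libraries. Groups did not overlap in either strain, although Glu_positive_5254 was far below the other Glu positive libraries. The log2 fold changes were 2.70 ± 0.55 (adjusted p = 0.00268) in the NeuroD1 strain and 2.83 ± 0.64 (adjusted p = 0.0124) in the Glu strain. The Glu call was lost without Glu_negative_5254 (3.41, adjusted p = 0.0662) or Glu_negative_4665 (2.44, adjusted p = 0.190).

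Gpr22 is an orphan receptor known from heart and brain, on chromosome 12 at 31706867 to 31713947 on the minus strand. It was at 27.5, 7.63 and 24.0 CPM in NeuroD1 positive libraries, against 1.23, 1.51 and 1.75 CPM in NeuroD1 negative libraries. It was at 46.1, 35.1 and 42.9 CPM in Glu positive libraries, against 5.09 and 5.46 CPM in Glu negative libraries. The groups were apart in both strains, with log2 fold changes of 3.73 ± 0.64 (adjusted p = 0.000538) and 2.96 ± 0.67 (adjusted p = 0.0117). The Glu call was lost without Glu_negative_5254 (2.92, adjusted p = 0.138) or Glu_negative_4665 (3.03, adjusted p = 0.139) and with the compared groups alone (2.92, adjusted p = 0.0501).

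The 250 bases before the RefSeq starts of the genes higher in both strains are printed because these members moved together. The windows are from RefSeq on GRCm38.p6, read 5′ to 3′ on the gene's strand. Capitals mark matches to CANNTG, the E-box bound by basic helix-loop-helix factors, a class that includes Neurod1, or to TATAAA. Windows were found for 3 of these 4 genes, and Adgrf5 has 2.
Adgrg4, chrX:56893984-56894233, plus strand: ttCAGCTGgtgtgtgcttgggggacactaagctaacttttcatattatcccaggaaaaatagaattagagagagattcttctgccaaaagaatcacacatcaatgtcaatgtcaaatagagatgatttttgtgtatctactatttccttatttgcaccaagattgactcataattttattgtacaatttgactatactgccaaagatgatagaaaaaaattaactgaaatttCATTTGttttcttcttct
Adgrf5, first window, chr17:43360181-43360430, plus strand: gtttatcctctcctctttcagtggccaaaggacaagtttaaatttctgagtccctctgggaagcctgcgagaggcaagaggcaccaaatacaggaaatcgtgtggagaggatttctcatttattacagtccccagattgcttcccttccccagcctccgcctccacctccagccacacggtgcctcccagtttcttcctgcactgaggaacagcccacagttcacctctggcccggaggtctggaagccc
Adgrf5, second window, chr17:43389216-43389465, plus strand: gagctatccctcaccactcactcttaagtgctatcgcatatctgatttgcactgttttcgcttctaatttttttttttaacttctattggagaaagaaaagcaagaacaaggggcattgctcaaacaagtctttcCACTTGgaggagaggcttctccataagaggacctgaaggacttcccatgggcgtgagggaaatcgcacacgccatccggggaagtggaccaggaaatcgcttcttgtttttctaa
Gpr22, chr12:31713884-31714133, minus strand: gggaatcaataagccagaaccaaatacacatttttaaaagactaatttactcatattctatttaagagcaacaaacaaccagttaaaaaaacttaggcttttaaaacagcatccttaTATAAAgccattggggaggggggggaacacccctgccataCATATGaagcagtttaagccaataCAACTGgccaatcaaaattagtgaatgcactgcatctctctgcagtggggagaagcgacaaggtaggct

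The Adgrg4 window was A and T rich, with a GC content of 31.6% against a median of 52.4% over 32851 promoter windows of the same length. It held CANNTG at -248 and -18, counted back from the start, and it lies inside the gene as GENCODE draws it. The first Adgrf5 window held no match (GC content 54.4%) and the second held CANNTG at -115 (44.8%). The Gpr22 window held TATAAA at -133 and CANNTG at -93 and -69 (39.6%). CANNTG, which reads the same on both strands, occurred in 66.2% of all windows and TATAAA in 12.4%, counting both strands. The motifs CAGATG (a form of CANNTG, in 14.4% of windows), GGGCGG (32.7%) and TGTTTAC (3.17%) were also searched on both strands and had no match in the 4 windows. With E-boxes in most promoters, a match in 3 of the 4 windows describes the sequence and shows no site.

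Adgrg1, Gpr6 and Gpr75 were called higher in the NeuroD1 strain alone, and no difference between the strains was called for them. Adgrg1, also known as GPR56, binds collagen III and guides the building of the brain's cortex. It was at 98.8, 71.7 and 89.2 CPM in NeuroD1 positive libraries, against 30.7, 27.1 and 15.7 CPM in NeuroD1 negative libraries (log2 fold change 1.81 ± 0.48, adjusted p = 0.0161). Glu positive libraries had 19.4, 88.2 and 53.4 CPM, against 20.8 and 18.8 CPM in Glu negative libraries, so Glu_positive_5254 sat at the level of the negative cells. Without Glu_positive_5254, Adgrg1 was called higher in the Glu strain too (1.84, adjusted p = 0.0115). In the NeuroD1 strain its call was lost with scaling by library totals (1.47, adjusted p = 0.0814), without NeuroD1_positive_6360 (1.71, adjusted p = 0.0572) and without NeuroD1_negative_6362 (1.58, adjusted p = 0.0831).

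Gpr6, which raises cyclic AMP without an added ligand, was at 6.61, 8.01 and 3.39 CPM in NeuroD1 positive libraries, against 0.176, 0 and 0 CPM in NeuroD1 negative libraries. With 55 counts against 1, the ratio was 54.4 (exact 95% counting interval 9.37 to 2188, edgeR adjusted p = 0.00584). In the Glu strain it was at 0.303, 1.38 and 0.855 CPM in positive libraries, against 0.442 and 0.140 CPM in negative libraries, with overlap. Gpr75, a receptor whose loss lowers body weight in human and mouse, was at 3.31, 8.01 and 1.27 CPM in NeuroD1 positive libraries and at 0 in all NeuroD1 negative libraries. The 36 counts against 0 put it at least 11.9-fold higher at a floor of 3 counts over the group (adjusted p = 0.0121), and the call was lost without NeuroD1_negative_6360 (adjusted p = 0.0647). The bound was 6.69-fold without NeuroD1_positive_6361 and 5.11-fold without NeuroD1_negative_6360. Gpr6 was at least 7.80-fold higher without NeuroD1_negative_6360, which held its 1 count. Gpr75 was at 0.303, 3.10 and 2.28 CPM in Glu positive libraries, against 0.221 and 0.420 CPM in Glu negative libraries. Gpr75 shares exons with Asb3 on the same strand, so its counts are uncertain. Counting intervals and floors cover counting error only.

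The members lower in NeuroD1 positive libraries included the proton sensors Gpr132 and Gpr65 (TDAG8), both known from leukocytes. Gpr132 was at 0.367, 0.382 and 0.212 CPM in NeuroD1 positive libraries, against 4.41, 10.5 and 22.3 CPM in NeuroD1 negative libraries, 3 counts against 97, a ratio of 32.7 (95% interval 10.9 to 161). The ratio was 20.1 without NeuroD1_negative_6362 and 56.4 without NeuroD1_negative_6360. Gpr65 was at 0, 0.382 and 0.212 CPM in NeuroD1 positive libraries, against 5.99, 10.04 and 1.75 CPM in NeuroD1 negative libraries, 2 counts against 58 (ratio 29.3, 95% interval 7.76 to 248). The groups did not overlap for either gene, and adjusted p-values were 0.000516 for Gpr132 and 0.00647 for Gpr65.

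Among the lipid and oxysterol receptors of leukocytes, 2 of 5 tested members were lower in the NeuroD1 strain, where 7.61% of all genes were. Gpr183 (EBI2), the oxysterol receptor that positions B cells and other leukocytes, was at 0, 0.382 and 1.91 CPM in NeuroD1 positive libraries, against 17.6, 18.6 and 11.4 CPM in NeuroD1 negative libraries. Its log2 fold change was -4.13 ± 0.75 (adjusted p = 0.000987), and -6.18 without NeuroD1_positive_6362, which had most of its counts in the positive group. Gpr18, found in lymphocytes, was at 1.10, 0 and 0.212 CPM in NeuroD1 positive libraries, against 6.70, 12.6 and 3.49 CPM in NeuroD1 negative libraries (-4.08 ± 0.98, adjusted p = 0.00824). Its call was lost without NeuroD1_positive_6362 (-3.68, adjusted p = 0.0510), and without NeuroD1_positive_6360 the value was -5.55. Gpr171, a receptor paired with the peptide BigLEN that Pcsk1n encodes and known from T cells, was at 0, 0 and 0.424 CPM in NeuroD1 positive libraries, against 6.17, 1.00 and 10.04 CPM in NeuroD1 negative libraries, 2 counts against 60 (ratio 30.3, 95% interval 8.04 to 256). Without NeuroD1_positive_6362, which held both counts, it was at least 10.7-fold lower. Its adjusted p of 0.0116 in edgeR became 0.104 with limma voom and 0.0513 without NeuroD1_positive_6360.

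The adhesion receptors Adgre1 and Adgrg3, both of leukocytes, were lower in NeuroD1 positive libraries. Adgre1, the macrophage antigen F4/80, was at 0.367, 0 and 0.212 CPM in NeuroD1 positive libraries, against 7.58, 7.03 and 2.62 CPM in NeuroD1 negative libraries, 2 counts against 63 (ratio 31.8, 95% interval 8.46 to 269, edgeR adjusted p = 0.0151). Its call was lost without NeuroD1_positive_6361 (adjusted p = 0.0596), without NeuroD1_positive_6362 (0.0640) and without NeuroD1_negative_6360 (0.0503). Adgrg3, or GPR97, a receptor of neutrophils, was at 0 in all NeuroD1 positive libraries, against 3.70, 1.51 and 2.18 CPM in NeuroD1 negative libraries. It was at least 9.77-fold lower at the floor of 3 counts (adjusted p = 0.0140), and not called without NeuroD1_positive_6362 (0.0575) or NeuroD1_negative_6360 (0.0515).

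Markers of leukocytes moved with these receptors. All 7 T and NK cell markers were lower in the NeuroD1 strain, summing to 7.34 to 53.4 CPM in positive libraries, against 230.5 to 352 CPM in negative libraries. All 6 B and plasma cell markers were lower, at 25.3 to 51.7 CPM in positive libraries, against 647 to 1946 CPM in negative libraries. Of 6 tested myeloid markers, 5 were lower, at 10.3 to 18.6 CPM in positive libraries, against 124 to 235 CPM in negative libraries. Lower there too were 3 of 3 Paneth, 4 of 4 goblet, 5 of 6 enterocyte and 4 of 6 stromal markers, so the fall was not particular to leukocytes. Of tuft, endothelial, and stem and cycling markers, 2 of 5, 1 of 4 and 1 of 4 were lower. The part of any of these lists in the receptor values was not tested.

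**Figure D3:**
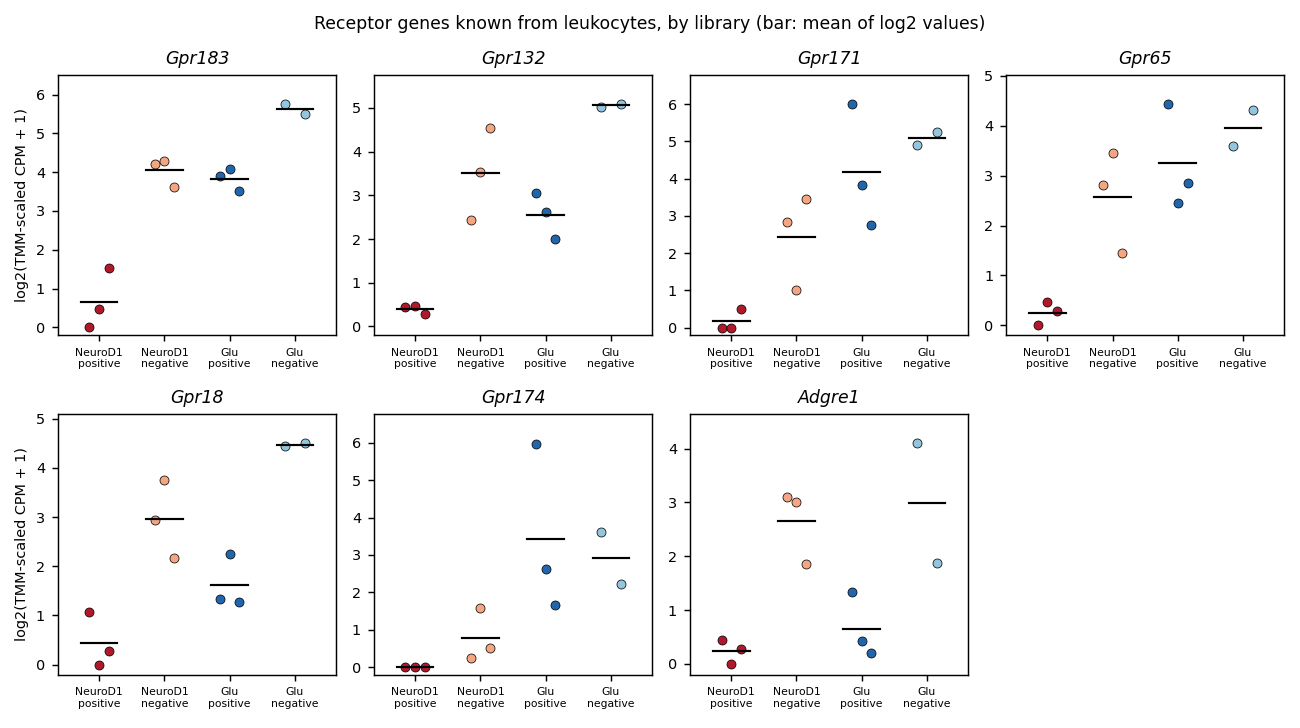
TMM-scaled CPM on a log2(CPM + 1) scale in each library for 7 receptor genes known from leukocytes, with 1 point per library and a bar at the mean of the log2 values. NeuroD1 positive libraries are lowest for Gpr183, Gpr132, Gpr171, Gpr65 and Gpr174, and Glu_positive_5254 is at 61.9 CPM for Gpr174 and 62.5 CPM for Gpr171.

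**Figure D4:**
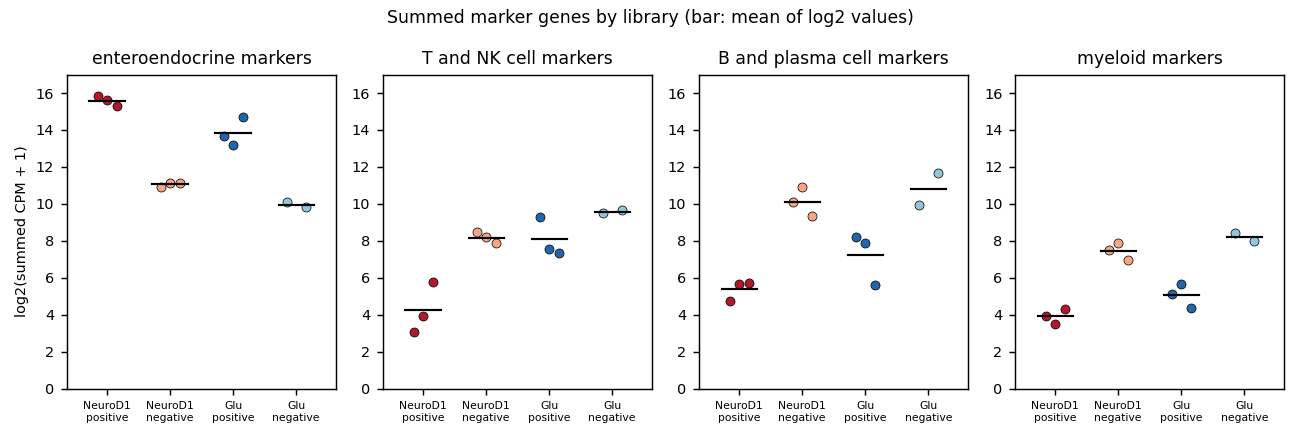
Summed TMM-scaled CPM of each marker list on a log2(sum + 1) scale in each library, with 1 point per library and a bar at the mean of the log2 values. The enteroendocrine sum is higher in positive libraries of both strains. The T and NK cell sum of Glu_positive_5254 is 628 CPM, against 716 and 812 CPM in Glu_negative_5254 and Glu_negative_4665. It is near them through Cd3e, at 544 CPM, against 359 and 388 CPM. Cd2 lies between the negative libraries, and Cd3d, Cd3g, Cd8a, Nkg7 and Ccl5 are lower than in both. Cd8a, for example, is at 11.2 CPM, against 94.2 and 122 CPM.

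Adgrg7 and Gpr35 were lower as well in the NeuroD1 strain. Adgrg7, or GPR128, an adhesion receptor known mainly from intestinal epithelium, was at 38.9, 37.4 and 44.3 CPM in NeuroD1 positive libraries, against 169, 130 and 209 CPM in NeuroD1 negative libraries. The groups were far apart, with a log2 fold change of -2.07 ± 0.42 (adjusted p = 0.00250). Gpr35, a receptor of the gut and of leukocytes that responds to kynurenic acid, was at 2.94, 0.763 and 5.72 CPM in NeuroD1 positive libraries, against 13.9, 30.1 and 27.9 CPM in NeuroD1 negative libraries (-2.87 ± 0.74, adjusted p = 0.0133). Its call was lost without NeuroD1_positive_6360 (-2.80, adjusted p = 0.0535) or NeuroD1_positive_6361 (-2.42, adjusted p = 0.0564), and the value was -3.66 without NeuroD1_positive_6362. The 6 enterocyte markers summed to 2489.6 to 3286 CPM in NeuroD1 positive libraries, against 3894 to 11561 CPM in NeuroD1 negative libraries, with 5 lower. The 4 goblet cell markers summed to 333 to 541 CPM in NeuroD1 positive libraries, against 2147 to 3009 CPM in NeuroD1 negative libraries, with all 4 lower. Their part in the values of Adgrg7 and Gpr35 was not tested.

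In the Glu strain Adgrg7 was at 229.97, 133 and 58.0 CPM in positive libraries, against 149.9 and 106 CPM in negative libraries, and the groups overlapped without a call. Gpr35 was at 5.46, 12.7 and 2.99 CPM in Glu positive libraries, against 14.4 and 14.99 CPM in Glu negative libraries, without a call.

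The 4 members lower in Glu positive libraries were Adgre1, Adgre4, Gpr18 and Gpr132. Adgre1 was at 1.52, 0.344 and 0.142 CPM in Glu positive libraries, against 16.1 and 2.66 CPM in Glu negative libraries (log2 fold change -3.85 ± 1.13, adjusted p = 0.0473). Its value was -2.05 without Glu_negative_5254 (adjusted p = 0.525), -4.64 without Glu_negative_4665, -3.26 without Glu_positive_4665 and -5.26 without Glu_positive_5254. Adgre4, a close relative of Adgre1 in myeloid cells, was at 0, 0 and 0.142 CPM in Glu positive libraries, against 5.75 and 0.840 CPM in Glu negative libraries. With 1 count against 32, the ratio was 36.3 (exact 95% counting interval 6.06 to 1477, edgeR adjusted p = 0.0407). The ratio was 11.1 without Glu_negative_5254 and 76.0 without Glu_negative_4665, and without Glu_positive_4665, which held the 1 count, Adgre4 was at least 5.67-fold lower. In the NeuroD1 strain Adgre4 averaged 0.848 CPM in positive and 6.23 CPM in negative libraries, and it was not called. It was called lower there by edgeR with the compared groups alone (adjusted p = 0.0176) and by limma voom (adjusted p = 0.0497). Gpr18 was at 1.52, 3.79 and 1.42 CPM in Glu positive libraries, against 20.8 and 21.6 CPM in Glu negative libraries (-3.26 ± 0.88, adjusted p = 0.0322). Gpr132 was at 7.28, 5.17 and 2.99 CPM in Glu positive libraries, against 31.6 and 33.2 CPM in Glu negative libraries (-2.66 ± 0.71, adjusted p = 0.0311). The Glu negative libraries were close to each other for Gpr18 and Gpr132 and far apart for Adgre1 and Adgre4. None of the 4 was called without Glu_negative_5254, without Glu_negative_4665 or without Glu_positive_4665, and 1 was called without Glu_positive_5160. Without Glu_positive_5254 neither Gpr18 (-3.06, adjusted p = 0.0589) nor Adgre4 (adjusted p = 0.0816) was called, and Adgre5, an adhesion receptor not called with all libraries, was lower (-1.42, adjusted p = 0.0341).

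Beside these 4 genes, 4 of 6 tested myeloid markers were lower in the Glu strain (19.4 to 50.3 CPM in positive libraries, against 257 to 345 CPM in negative libraries). For B and plasma cells 2 of 6 markers were lower (48.6 to 295 CPM in positive, against 985 to 3304 CPM in negative libraries), and for T and NK cells 2 of 7 (163 to 628 CPM in positive, against 716 to 812 CPM in negative libraries). Their part was not tested.

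Set against each other directly, NeuroD1 positive and Glu positive libraries differed in 8 members, 1 higher and 7 lower in NeuroD1 positive, which is 2.04% and 14.3% of the 49 tested. Of all genes, 8.13% were called, 3.18% higher and 4.95% lower. Strain, reporter and set of libraries cannot be told apart in this comparison, and its libraries are those used above. The median log2 fold change was -0.73 for the members and -0.14 for all genes. Adgrg2, or GPR64, a receptor known from the epididymis, was the higher one. It was at 15.8, 2.29 and 3.60 CPM in NeuroD1 positive libraries, against 0.607, 0.344 and 0 CPM in Glu positive libraries. With 66 counts against 3, the ratio was 28.9 (exact 95% counting interval 9.47 to 144, edgeR adjusted p = 0.0213), and the call was lost without NeuroD1_positive_6360 (log2 fold change 3.33, adjusted p = 0.131). The ratio was 13.8 without NeuroD1_positive_6360, 65.1 without Glu_positive_5254 and 13.6 without Glu_positive_4665. NeuroD1 negative libraries also had Adgrg2, at 4.23, 3.01 and 6.55 CPM, against 0.221 and 0.140 CPM in Glu negative libraries.

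The 7 members lower in NeuroD1 positive than in Glu positive libraries included Gpr174, Gpr171, Gpr65, Gpr132, Gpr183 and Adgrg7. Gpr174, a lysophosphatidylserine receptor of lymphocytes, was at 0 in all NeuroD1 positive libraries, against 61.9, 5.17 and 2.14 CPM in Glu positive libraries, at least 59.4-fold lower at the floor of 3 counts (0 against 234 counts, adjusted p = 0.00542). Gpr171 was at 0, 0 and 0.424 CPM in NeuroD1 positive libraries, against 62.5, 13.1 and 5.70 CPM in Glu positive libraries (2 against 284 counts, ratio 108, 95% interval 29.6 to 897, edgeR adjusted p = 0.00149). Glu_positive_5254 was the high one for both genes and held 204 of the 234 counts of Gpr174. Without it Gpr174 was at least 10.1-fold lower (0 against 30 counts, adjusted p = 0.0300), and the ratio for Gpr171 was 39.5 (adjusted p = 0.00451). Without NeuroD1_positive_6362, which held both of its counts, Gpr171 was at least 38.3-fold lower. Gpr65 had 2 counts in NeuroD1 positive libraries, against 125 counts in Glu positive libraries, at 20.6, 4.48 and 6.27 CPM (ratio 47.6, 95% interval 12.9 to 397, edgeR adjusted p = 0.00424), and its ratio was 28.9 without Glu_positive_5254. Gpr132 had 3 counts in NeuroD1 positive libraries, against 60 in Glu positive libraries (ratio 15.2, 95% interval 4.97 to 75.9, edgeR adjusted p = 0.00992), and was not called without NeuroD1_positive_6362 (adjusted p = 0.0591) or with limma voom (0.0919). With limma voom Gpr174 was not called either (adjusted p = 0.0613).

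Gpr183 was at 0, 0.382 and 1.91 CPM in NeuroD1 positive libraries, against 14.0, 15.8 and 10.4 CPM in Glu positive libraries (-3.88 ± 0.75, adjusted p = 0.00356), and the value was -5.93 without NeuroD1_positive_6362. No NeuroD1 positive library reached the lowest Glu positive library. Adgrg7 was at 38.9, 37.4 and 44.3 CPM in NeuroD1 positive libraries, against 229.97, 133 and 58.0 CPM in Glu positive libraries (-1.80 ± 0.42, adjusted p = 0.0122). It was not called without NeuroD1_positive_6360 (-1.77, adjusted p = 0.0584) or NeuroD1_positive_6361 (-1.73, adjusted p = 0.0572), or with limma voom (-1.44, adjusted p = 0.108). In the same comparison 6 of 7 T and NK cell markers were lower, at 7.34 to 53.4 CPM in NeuroD1 positive libraries, against 628, 189 and 163 CPM in Glu positive libraries. All 4 goblet cell markers were lower as well, at 333 to 541 CPM in NeuroD1 positive libraries, against 838 to 2336 CPM in Glu positive libraries. The part of these markers in the receptor values was not tested.

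No member was called for a difference between the strains in the positive over negative fold, nor between NeuroD1 negative and Glu negative libraries, with edgeR, DESeq2 or limma voom. For the difference between the strains, 0.112% of all genes were called by edgeR, 0.0907% higher and 0.0209% lower. Between the negative populations it was 0.488%, with 0.363% higher and 0.126% lower. At an unadjusted p under 0.05 there were 9 members in the first test and 10 in the second. Among the 9 were Gpr6 on the higher side, and Gpr174, Gpr171, Gpr65, Gpr39, Gpr132, Gpr183 and Adgrg7 on the lower, named after their values were seen. With no filter on low counts, Adgrg7 (adjusted p = 0.0239) and Gpr171 (0.0272) were called lower in the first test. EdgeR called none of Gpr65, Gpr171, Gpr183 and Adgrg7 in the Glu strain, while DESeq2 (-1.87, adjusted p = 0.0197) and limma voom (-1.90, adjusted p = 0.0240) called Gpr183 lower there. By the edgeR test the lower values of these 4 genes in NeuroD1 positive libraries are not shown to differ between the strains. In simulated counts the interaction test recovered 36.2% of genes changed 8-fold, on 13966 genes, so a difference of that size would often be missed. That simulation changed genes of any level. It gave 48 calls, against 16 in the data, so adjustment was less strict in it.

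The other 28 tested members were called in no comparison by the edgeR test described above. Other tools or settings called some of them lower in the NeuroD1 strain. These were Gpr155 with DESeq2 (adjusted p = 0.0398) and with the compared groups alone (0.0166), Adgrg6 with DESeq2 (0.0393) and 3 other settings, Gpr157 with limma voom (0.0355) and without NeuroD1_positive_6360 (0.0172), and Adgre5 with the compared groups alone (0.0469). Adgra3 was called higher in the Glu strain (adjusted p = 0.0475) and lower in NeuroD1 positive over Glu positive (0.0202) with no filter. Between the positives Gpr141b was lower with no filter (0.0477), and Adgra2 (0.0421) and Gpr34 (0.0442) were lower without Glu_positive_4665. Of the 28, the 10 with the highest level per kilobase were Adgre5, Gpr108, Gpr89, Adgra3, Gpr155, Gpr107, Gpr160, Gpr180, Gpr39 and Adgrl1. Adgre5 (CD97), an adhesion receptor that binds the complement regulator CD55, averaged 63.6 CPM in NeuroD1 positive, 112 CPM in NeuroD1 negative, 96.9 CPM in Glu positive and 176 CPM in Glu negative libraries. Its exons overlap Ddx39 on the opposite strand. Gpr107 averaged 57.4 CPM in NeuroD1 positive, 85.3 CPM in NeuroD1 negative, 40.8 CPM in Glu positive and 50.3 CPM in Glu negative libraries. It belongs with Gpr89, Gpr108, Gpr137, Gpr137b, Gpr137c and Gpr180 to the 7 Gpr-named proteins of internal membranes, of which 6 were tested and 0 called by edgeR in the NeuroD1 or the Glu strain, where 14.2% and 6.64% of all genes were. Gpr89 was called lower in the NeuroD1 strain with the compared groups alone (adjusted p = 0.0398) and without NeuroD1_negative_6361 (0.0487). Adgrl1, a latrophilin that binds teneurins, was at 25.7, 33.2 and 52.8 CPM in NeuroD1 positive libraries, against 12.9, 27.1 and 14.4 CPM in NeuroD1 negative libraries, and the groups overlapped. Gpr39, a zinc receptor whose exons overlap Lypd1 on the opposite strand, was at 2.57, 4.96 and 8.90 CPM in NeuroD1 positive libraries, against 5.99, 21.1 and 14.0 CPM in NeuroD1 negative libraries, while in the Glu strain it was at 1.52, 11.7 and 12.8 CPM in positive, against 2.65 and 4.48 CPM in negative libraries, with overlap in both strains. Adgra3 was at 179.6 CPM in Glu_positive_5254, against 19.98 and 19.7 CPM in the other Glu positive libraries.

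The remaining 20 members had 18 to 97 counts over all libraries and were not tested. None had its counts in 1 group alone. Gpr84, a receptor for medium-chain fatty acids on myeloid cells, had 19 counts in NeuroD1 positive, 2 in NeuroD1 negative and 0 in Glu libraries of either kind. Most of the 19 came from NeuroD1_positive_6362, at 3.39 CPM. Gpr82 had 44 counts in Glu negative libraries, nearly all in Glu_negative_4665, at 6.02 CPM. Adgrf1, or GPR110, had 0 counts in NeuroD1 positive libraries and 24 in NeuroD1 negative libraries, most of them in NeuroD1_negative_6360, at 3.17 CPM. It was called lower in the NeuroD1 strain with no filter (adjusted p = 0.0197) and without mt-Rnr1 and mt-Rnr2 (0.0324).

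Known partners of these receptors were measured in the same libraries. Of 26 ligands and partners of adhesion receptors, 17 were tested, and 3 were higher and 6 lower in the NeuroD1 strain, 3 higher and 1 lower in the Glu strain. Of all genes tested, 6.57% were higher and 7.61% lower in the NeuroD1 strain, and 4.22% and 2.41% in the Glu strain. The medians of these partners were -0.01 and -0.71 on the log2 scale, against 0.02 and 0.12 for all genes. Flrt1, a ligand of latrophilins, averaged 45.7 CPM in NeuroD1 positive, against 2.96 CPM in NeuroD1 negative libraries (3.94 ± 0.72, adjusted p = 0.000952), and 7.63 CPM in Glu positive, against 0.781 CPM in Glu negative libraries (3.22 ± 0.85, adjusted p = 0.0292). Prnp, the prion protein and a ligand of Adgrg6, averaged 118 CPM in NeuroD1 positive, against 10.1 CPM in NeuroD1 negative libraries, and 76.3 CPM in Glu positive, against 11.6 CPM in Glu negative libraries, and was higher in both strains (3.55 ± 0.42 and 2.72 ± 0.47). Adgrg6 itself was low, at 0.367 to 0.848 CPM in NeuroD1 positive libraries and 0.142 to 0.910 CPM in Glu positive libraries. Collagen III gene Col3a1 and Tgm2, both binding partners of Adgrg1, were lower in NeuroD1 positive libraries (-1.70 ± 0.52 and -3.38 ± 0.48), where Adgrg1 was higher. These partners were picked out with their values known.

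Of 14 G protein alpha subunits, 12 were tested, and the same 3, Gnao1, Gnai1 and Gnaz of the inhibitory class, were higher in both strains. For each list in this paragraph, the shares of all genes were 6.57% higher and 7.61% lower in the NeuroD1 strain. In the Glu strain they were 4.22% and 2.41%. Gnao1 averaged 259.6 CPM in NeuroD1 positive, against 17.4 CPM in NeuroD1 negative libraries, and 251 CPM in Glu positive, against 18.4 CPM in Glu negative libraries (3.91 ± 0.39 and 3.77 ± 0.46). Gna11, of the Gq class, was lower in the NeuroD1 strain (-1.61 ± 0.37, adjusted p = 0.00569). The median was 0.79 in the NeuroD1 strain and 1.22 in the Glu strain, against 0.02 and 0.12 for all genes. Of 7 tested receptor kinases and arrestins, of 8 listed, 1 was called, Arrb1, lower in the NeuroD1 strain at 28.2 CPM in positive, against 77.7 CPM in negative libraries. Of 7 listed ligands or ligand-making enzymes paired with orphan-named receptors, 6 were found in the count table and 4 were tested, and 2 were higher in the NeuroD1 strain and 1 in the Glu strain. Pcsk1n was higher in both strains, at 96.7 CPM in NeuroD1 positive, against 11.3 CPM in NeuroD1 negative libraries, and 23.4 CPM in Glu positive, against 3.70 CPM in Glu negative libraries. Its receptor gene Gpr171 was lower in NeuroD1 positive libraries, as given above. Cartpt, which encodes a peptide proposed as a ligand of Gpr160, averaged 7.22 CPM in NeuroD1 positive, against 0.0587 CPM in NeuroD1 negative libraries, and was at 0 in every Glu library.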

How the data were processed

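Cells were sorted from digested duodenal epithelium, and RNA was amplified with an Ovation RNAseq kit before sequencing, per the labels' protocols. Tools named in the submitters' processing notes are TopHat2 2.1.0, Cufflinks 2.2.1 and CASAVA, with the build GRCm38. Which annotation was counted, and whether strand was used, is not given in the sources used here. As far as the values show, the deposited table holds the authors' estimated counts, not normalized, with values that are not whole in 848 of 38283 genes. They were rounded. Symbols were found for 36341 genes.

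Counts of 2279595 to 5722381 per library were tested in edgeR 4.0.16 (R 4.3.3) after filterByExpr (minimum count 10) and TMM scaling, with 4 group means over 11 libraries, no replicate block and 5 contrasts. Adjustment ran over all 14332 genes. The SE is the size of the log2 fold change divided by the square root of F. In simulated counts the NeuroD1 comparison recovered 68.8% of genes changed 8-fold, on 13556 genes, and the Glu comparison 51.0%, on 13826 genes. Each simulation changed 200 genes of any level, so recovery of receptors with few counts was not measured. The NeuroD1 and Glu simulations gave 84 and 70 calls, against 2031 and 951 in the data, so adjustment was stricter in them. In the interaction simulation it was less strict, with 48 calls against 16. Within each group libraries differed beyond sampling noise (chi-square per degree of freedom 17.0 to 153), and none was merged.

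Bounds for a group with no counts set it to 3 counts in all. Where a group had 1 to 3 counts, the ratio is given with a 95% interval (exact, Clopper-Pearson). Reads were amplified and carry no molecular identifiers, so they are not independent molecules. Promoter windows came from RefSeq (GRCm38.p6) and were found for 52 of 69 members. Alternatives were RLE, upper quartile and library-total scaling, no filter and a minimum count of 30, DESeq2 1.42.0, limma voom 3.58.1, the compared groups alone, a replicate block, removal of mt-Rnr1 and mt-Rnr2, and each library left out.

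The members, roles, marker and partner lists were chosen with earlier results of these data known. Fold changes are given for called members and Adgrg4. Of members called nowhere, the 10 with the highest level per kilobase are named. A few receptor genes are not reported here; totals over the members still hold them. Other genes were named after their values were seen.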

Additional observations from a re-analysis of the deposited data

How the results depend on the processing

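Of 34 calls of a member in a comparison, 16 held without each library in turn, 18 were lost without at least 1, and 12 were lost under another alternative. None changed direction in any of 511 recomputed values. Adgrg4, Adgrf5, Adgrd1, Gpr22, Gpr132, Gpr183, Gpr65, Gpr6 and Adgrg7 kept their NeuroD1 calls under every alternative that gave them a value. Where leaving out a library left Glu negative with 1, that library was assumed to vary like those of the other groups.

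Without 1 library, members lower in the NeuroD1 strain numbered 7 to 11, those higher in the Glu strain 1 to 5 and those lower there 0 to 3. Those lower in the interaction numbered 0 to 1, where 1 is Adgrg7 without Glu_positive_4665, and those higher in NeuroD1 positive over Glu positive 0 to 2. Without Glu_negative_5254 or Glu_negative_4665, the Glu strain kept 2 and 1 of its higher calls.

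With the compared groups alone, 0 members were lower in the Glu strain, where Adgre1, Gpr18 and Gpr132 lost their calls and Adgre4 fell under the filter. Calls over all genes fell there too, to 195 higher and 145 lower of 13249 genes, from 605 and 346 of 14332. Leaving out either Glu negative library also lowered the calls over all genes in the Glu strain. With the compared groups alone, 0 members were higher in NeuroD1 positive over Glu positive, where Adgrg2 fell under the filter. Between the negatives 1, Adgrg4, was lower in NeuroD1 negative over Glu negative. With no filter, 2 were lower in the interaction (Adgrg7 and Gpr171), 2 (Adgrg2 and Adgrb1) were higher in NeuroD1 positive over Glu positive, and 1 (Adgrb1) was higher and 2 (Adgrg4 and Gpr171) were lower between the negatives. Of all 23468 genes in that setting, 260 were lower in the interaction and 654 were higher between the positives. Between the negatives 153 were higher and 92 lower. With a minimum count of 30, 0 members were higher between the positives, since Adgrg2 fell under the filter and was not tested. With limma voom, 4 members were lower between the positives, and with library totals 1, Adgrg4, was lower between the negatives. Over all genes limma voom called 243 lower between the positives, against 709 in the main test. Library totals called 38 lower between the negatives, against 18. The causes of the other changes were not tested. Genes called under an alternative and not in the main test were named after their values were seen.

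Same-numbered libraries of a strain correlated at 0.00984 to 0.0459 in their deviations from the group means over 5 pairs. NeuroD1_positive_6361 correlated more with NeuroD1_negative_6362 (0.0201) than with its own number (0.0104). Whether a number marks an animal or a sort is not given in the labels. With the replicate block, 7 members were higher and 10 lower in the NeuroD1 strain and 3 higher and 1 lower in the Glu strain, where Adgrd1 (adjusted p = 0.0702), Adgre1 (0.0994), Adgre4 (0.178) and Gpr132 (0.0714) lost their calls. Over all genes that setting called 914 higher and 1042 lower in the NeuroD1 strain and 512 and 195 in the Glu strain.

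With library totals, all tested genes had a median log2 fold change of -0.28 in the NeuroD1 strain, -0.19 in the Glu strain, -0.51 between the positives and -0.39 between the negatives. Together mt-Rnr1 and mt-Rnr2 took 27.5% to 33.9% of counts in 5 libraries, all of the NeuroD1 strain. They are listed at 0 in the other 6, which are the 5 Glu libraries and NeuroD1_negative_6360. The split thus mostly follows strain, and its reason is not given in the sources. With these genes included, NeuroD1_negative_6360 differed from its group at chi-square per degree of freedom of 143 and 153. NeuroD1_negative_6361 and NeuroD1_negative_6362 differed from each other at 20.4. Depth limits receptors with few counts: Gpr75, Gpr6, Adgrg3 and Adgre4 rest on 29 to 55 counts in their higher group.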

Other observations

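Some members were counted mainly in 1 strain, whichever way the cells were sorted. Adgrb1, or BAI1, an adhesion receptor of neurons and phagocytes, was at 0.367, 2.29 and 1.70 CPM in NeuroD1 positive libraries, against 0.705, 6.02 and 7.42 CPM in NeuroD1 negative libraries, and at 0 in all 5 Glu libraries. Gpr158, a class C orphan, was at 1.10, 2.67 and 1.91 CPM in NeuroD1 positive libraries, against 2.29, 4.52 and 1.75 CPM in NeuroD1 negative libraries. In the Glu strain it was at 0, 0 and 0.997 CPM in positive libraries, against 0 in both negative libraries. Neither was called between the strains by edgeR with the filter on low counts. With no filter Adgrb1 was called higher in NeuroD1 positive over Glu positive (adjusted p = 0.0300) and in NeuroD1 negative over Glu negative (0.0436), and Gpr158 was called higher between the positives without Glu_positive_4665 (0.0469). Strain, reporter and set of libraries cannot be told apart, and these genes were chosen after their values were seen.

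Other members owed most of their counts to 1 library. Gpr85 was at 9.12 CPM in Glu_positive_4665, against 0 and 0.344 CPM in Glu_positive_5254 and Glu_positive_5160. Gpr161 was at 5.70 CPM in Glu_positive_4665, against 0.303 and 0.344 CPM in the same libraries. Gpr61 was at 5.51 CPM in Glu_positive_5160, against 0 and 0.142 CPM in Glu_positive_5254 and Glu_positive_4665. None of these genes was tested.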
